A study of Mus musculus with 6 samples.

Results

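Genes induced by canonical Wnt signalling were compared between cortex with and without stabilised β-catenin. The set held 9 genes, picked by symbol as targets of the pathway, most of which feed back on it: Axin2, Nkd1, Apcdd1, Tnfrsf19, Rnf43, Znrf3, Sp5, Lgr5 and Notum. All 9 were found among the 47794 genes of the deposited table. RNA had been sequenced from primary somatosensory cortex of C57BL/6 mice at postnatal day 14. The control group was 3 libraries from β-cat lox(ex3) mice, which carry a floxed exon 3 of the β-catenin gene Ctnnb1 and no Cre. The overexpression group was 3 libraries from β-cat lox(ex3);Nex-Cre mice, in which the same floxed allele meets a Cre driven from the Neurod6 locus. Nex-Cre acts in excitatory forebrain neurons, so other cells of the tissue kept an unrecombined allele, and the effects of stabilised β-catenin and of the Cre allele itself cannot be told apart with these 2 groups. In bulk tissue, fewer cells of a type and less RNA per cell cannot be told apart either.

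When a Wnt ligand binds its receptors, β-catenin escapes a destruction complex, enters the nucleus and switches on genes with TCF/LEF factors. Many of those genes limit the signal that induced them. Axin2 rebuilds the destruction complex, Nkd1 binds Dishevelled, Znrf3 and Rnf43 are ubiquitin ligases that remove Frizzled receptors, Notum is an enzyme that strips the lipid from Wnt ligands, and Apcdd1 is a membrane inhibitor. Lgr5 is a receptor for R-spondins, which oppose Znrf3 and Rnf43. Tnfrsf19 is a receptor of the TNF receptor family, and Sp5 is a zinc-finger transcription factor. Removal of exon 3 takes from β-catenin the residues that mark it for degradation.

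None of the 9 genes was called different between the groups. By the authors' deposited table, none (0 of 9) had an adjusted p under 0.05, and 0% of the 30152 tested genes had one. Unadjusted, 0 of 9 were under 0.05 by the authors' deposited table, against 0.534% of tested genes, 0.328% with a higher and 0.206% with a lower value in overexpression cortex. With limma on recovered library values, 0 of 6 fitted members had an adjusted p under 0.05, against 0% of 10238 genes, and 0 of 6 had an unadjusted p under 0.05, against 2.04%. Counts of 0 at such background shares are not a result about these genes. Of the 9 group values, 6 were higher and 3 lower in overexpression cortex. The median log2 fold change was 0.04, against -0.01 over all tested genes. The direction of the set turned with single libraries. Over the 6 members fitted by limma, 5 were higher and 1 lower with a median of 0.04, but 3 were higher and 3 lower without control library A, with a median of -0.01, and likewise without overexpression library B, with a median of -0.01. The log2 fold changes of the group values ran from -0.41 for Sp5 to 0.27 for Lgr5.

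Each gene had been deposited with a single mean of scaled reads for each group. The values of the single libraries were recovered from these means for 7 of the 9 genes, by finding the whole reads in 3 libraries that add up to the deposited digits. Libraries are lettered A to C within a group by falling scaling factor and cannot be matched to the labels' replicate numbers. The scaling factors, which follow relative depth, ran from 0.907 to 0.982 in control and from 0.966 to 1.23 in overexpression libraries. The labels do not say whether libraries came from separate animals, so the spread between them may be technical in part. In control, library A held 98.8% to 100% of the scaled reads of each Y-linked gene named below. Its tissue thus came at least in part from other animals than that of control libraries B and C. Apcdd1 and Tnfrsf19 were too abundant for 1 solution. The overexpression means of Axin2, Nkd1 and Znrf3 allowed 4, 2 and 3 solutions, of which 1 each had every library within 1.5-fold of the mean, and that 1 was used; in control each of these genes had 1 solution. The smallest p that an exact permutation test of 3 libraries against 3 can give is 0.1, so that test could not pass 0.05 for any gene here.

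Axin2 (ENSMUSG00000000142), the most widely used reporter gene of the pathway, was close to equal in the groups. Its scaled read counts were 433, 501 and 517 in control libraries A, B and C. In overexpression libraries A, B and C they were 427, 486 and 473. The ranges overlapped, and library A was lowest in each group. The means were 484 ± 44.9 (SD, n = 3) in control and 462 ± 30.8 (SD, n = 3) in overexpression cortex, with a two-sided exact permutation p of 0.5. By limma on log2 of the library value plus 1, the fold was 0.956 with a 95% interval from 0.824 to 1.11 and a Benjamini-Hochberg adjusted p of 0.9996 over 10238 genes. In the same annotation 3.8% of its exon length overlaps the antisense gene Gm11670, at 12.4 in control and 7.30 in overexpression cortex. The spread between control libraries, a coefficient of variation of 9.28%, was larger than the 4.70% that counting reads alone gives.

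Nkd1 (ENSMUSG00000031661), the Dishevelled-binding inhibitor, had control values of 314, 370 and 373 in libraries A, B and C. Its overexpression values were 305, 411 and 375 in the same order of libraries. Overexpression library A lay below all control libraries and libraries B and C lay above them. The means of 352 ± 33.5 (SD, n = 3) and 364 ± 54.1 (SD, n = 3) differed by less than the spread, with an exact permutation p of 0.8. The limma fold was 1.03, with a 95% interval from 0.848 to 1.24. The estimate changed sign, to a log2 value of -0.04 without control library A and -0.06 without overexpression library B.

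The ubiquitin ligases that act on Frizzled also differed by less than their spread. Znrf3 (ENSMUSG00000041961) was at 433, 443 and 487 in control libraries A, B and C. In overexpression libraries A, B and C it was at 443, 476 and 482. All overexpression values lay within the control range. The means were 454 ± 29.1 (SD, n = 3) and 467 ± 21.0 (SD, n = 3), the limma fold was 1.03 with a 95% interval from 0.899 to 1.18, and the exact permutation p was 0.7. Rnf43 (ENSMUSG00000034177), its homologue, was at 59.1, 68.0 and 66.2 in control libraries A, B and C. In overexpression libraries A, B and C it was at 64.4, 65.9 and 67.3. These values also lay within the control range, and their coefficient of variation of 2.19% was below the 11.9% expected from counting alone. The limma fold was 1.02, with a 95% interval from 0.786 to 1.33, and the exact permutation p was 0.9. Its limma log2 value of 0.03 became -0.03 without control library A.

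Lgr5 (ENSMUSG00000020140), the R-spondin receptor, had the highest log2 fold change of the set. Its control values were 56.0, 50.8 and 93.7 in libraries A, B and C. The overexpression values were 66.8, 78.1 and 97.3 in the same order. Control library C was nearly as high as overexpression library C, and the ranges overlapped, with 1 overexpression library above all controls. The means were 66.8 ± 23.4 (SD, n = 3) and 80.7 ± 15.4 (SD, n = 3), with an exact permutation p of 0.4. The limma fold was 1.24, with a 95% interval from 0.851 to 1.79. Without control library C the limma fold was 1.49, with a 95% interval from 1.05 to 2.10, an unadjusted p of 0.0281 and an adjusted p of 0.992, which was between 0.992 and 0.9999 over all settings tried. Lgr5 was then the 1 member of 6 with an unadjusted limma p under 0.05, as were 383 of the 10238 fitted genes in that setting. The library left out there was the control with the highest Lgr5 value, so this p rests on that choice. Of 1017 genes with a mean within 1.25-fold of that of Lgr5, 82.5% had a smaller absolute log2 fold change between the group values.

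Notum (ENSMUSG00000042988), the Wnt deacylase, was scarce and variable. Its control values were 42.8, 29.2 and 22.1 in libraries A, B and C. In overexpression libraries A, B and C they were 27.7, 48.9 and 30.0. The highest and lowest libraries differed by group, so no library stood apart in the same way in both. The means were 31.3 ± 10.5 (SD, n = 3) and 35.5 ± 11.7 (SD, n = 3), the limma fold was 1.13 with a 95% interval from 0.715 to 1.80, and the exact permutation p was 0.6. The limma log2 value of 0.18 became -0.04 without control library C and -0.07 without overexpression library B. By the GENCODE M21 annotation, 29.4% of the exon length of Notum overlaps the antisense gene Notumos and 8.72% overlaps Myadml2os. No source used here gives the strand setting of the counting, so reads of Notum and of these genes cannot be told apart. Notumos itself was listed at 9.24 in overexpression and 7.38 in control cortex.

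Sp5 (ENSMUSG00000075304), the transcription factor, was near the limit of detection. Control libraries A, B and C held 3, 6 and 4 reads of it. Overexpression libraries A, B and C held 7, 4 and 1 reads. With 13 reads in 1 group and 12 in the other, a difference was not detectable at this depth. The scaled means were 4.65 ± 1.73 (SD, n = 3) in control and 3.50 ± 2.35 (SD, n = 3) in overexpression cortex, and the exact permutation p was 0.5. Among genes with a mean within 1.25-fold of that of Sp5, 45.3% had a log2 fold change nearer to 0 than its -0.41.

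**Figure D1:**
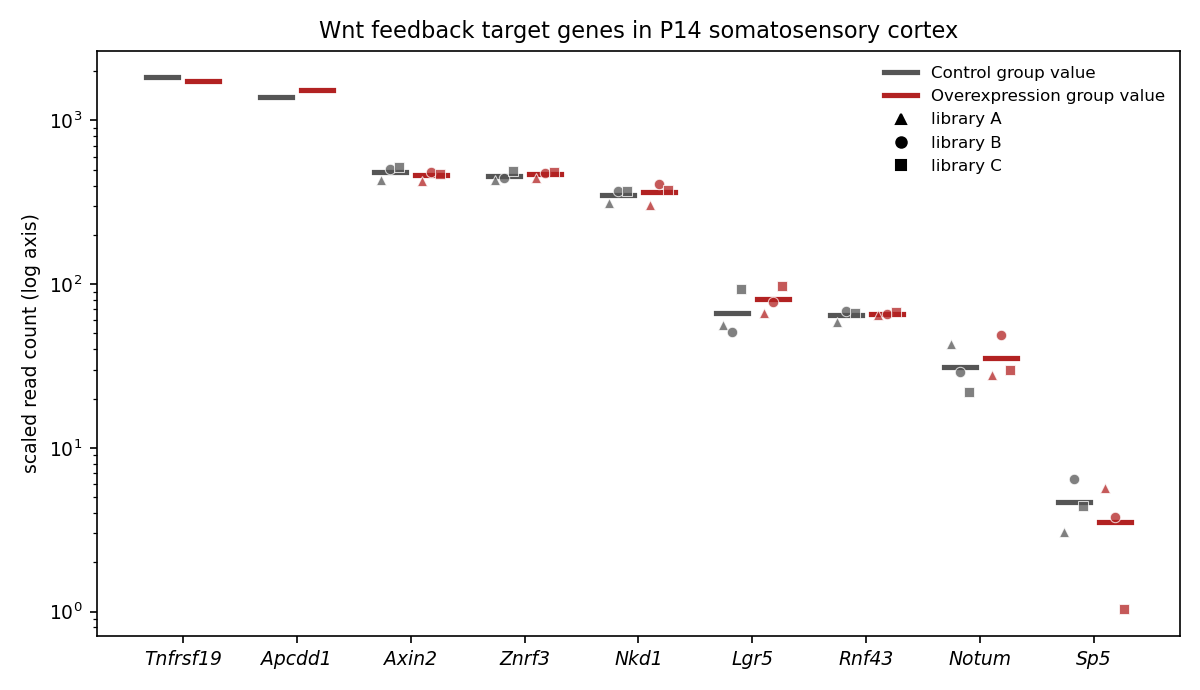
Scaled read count (log axis) of each gene, with bars for the deposited group values of control (grey) and overexpression (red) cortex and symbols for the recovered libraries A, B and C. Symbols of the groups overlap for all 7 genes that have them, and Tnfrsf19 and Apcdd1 have bars only.

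The most abundant genes of the set were Tnfrsf19 and Apcdd1. Tnfrsf19 (ENSMUSG00000060548) was at 1832 in control and 1728 in overexpression cortex, or -0.08 on the log2 scale. The authors' deposited table lists p = 0.414 for it, and 1 after adjustment. Apcdd1 (ENSMUSG00000071847) was at 1396 and 1525, or 0.13 on the log2 scale, and the authors' deposited table lists p = 0.548, and 1 after adjustment. These differences lay inside the central 95% of genes of like mean, which ran from -0.17 to 0.14 for Tnfrsf19 and from -0.18 to 0.16 for Apcdd1. For Apcdd1, 3 control combinations and 10 overexpression combinations had every library within 1.5-fold of the mean. The most even ones were 1287, 1469 and 1431 for control libraries A to C, with 1439, 1605 and 1530 for overexpression libraries. The next most even had coefficients of variation of 25.4% in control and 13.6% in overexpression. For Tnfrsf19 there were 4 and 13 combinations, the most even being 1872, 1860 and 1763 (control libraries A to C) with 1695, 1783 and 1706 (overexpression libraries A to C). None of these sets can be taken as the measured values, so neither gene has a library-level test.

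**Figure D2:**
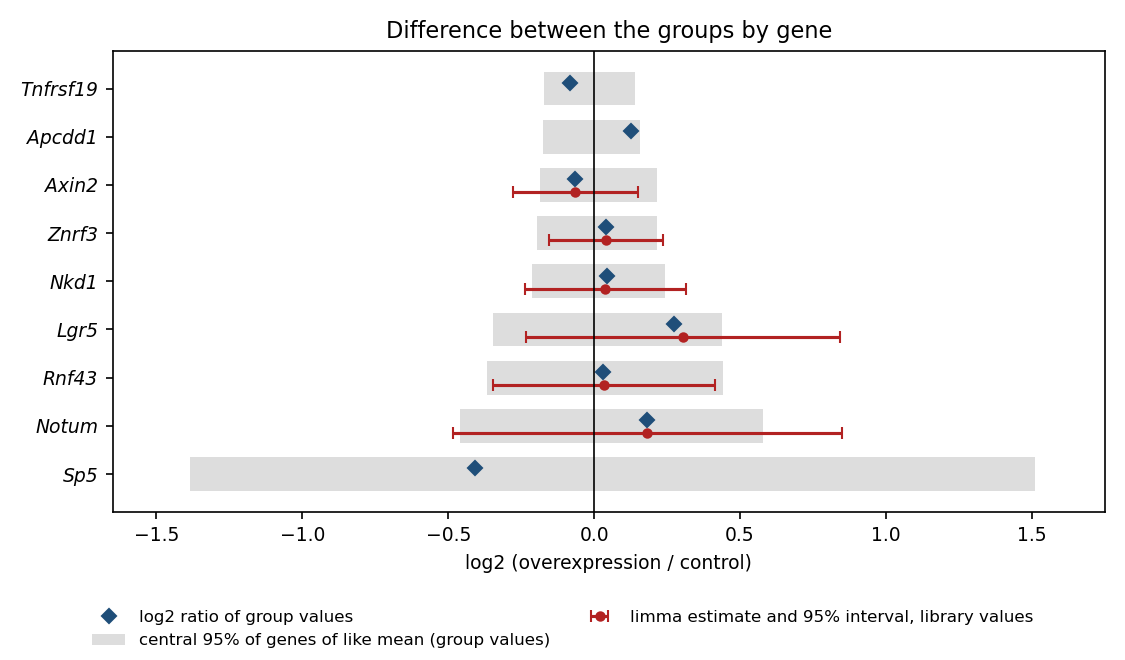
Log2 ratio of overexpression to control (x axis) by gene: diamonds are the deposited group values, circles with bars the limma estimates with 95% intervals from 6 libraries, and grey bands the central 95% of genes whose mean lies within 1.25-fold. The intervals of all 6 fitted genes include 0, and all 9 diamonds lie inside their bands.

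Per kilobase of exon in GENCODE M21, Tnfrsf19 had the highest control value of the set at 387 scaled reads per kb, above 86.2% of the 16462 genes that had a mean of 10 or more and a length. Apcdd1 followed at 108 and Axin2 at 87.8 scaled reads per kb. Nkd1 was at 77.3 scaled reads per kb, and its library range overlapped that of Axin2 in each group. Znrf3, at 57.6 scaled reads per kb, lay below Nkd1 with no overlap of libraries in either group. A gap separated these 5 genes from Notum at 13.0, Rnf43 at 9.82 and Lgr5 at 6.51 scaled reads per kb. The ranges of these last 3 neighbours overlapped in control but not in overexpression cortex. Sp5 was lowest at 2.21 scaled reads per kb, above 0.802% of those genes. With a mean of 4.07 it was itself below their minimum of 10, so a low share was largely set by that filter. The lengths count all annotated exons, and no source used here gives the annotation that the authors counted on.

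Several members shared their lowest library. In overexpression cortex all 6 fitted members were lowest in library A, as were 3591 of the 10238 fitted genes. In control cortex 4 of 6 were, as were 3958 of the 10238 fitted genes. Sp5, which was not fitted, was highest in overexpression library A and lowest in control library A. Axin2, Nkd1, Rnf43 and Znrf3 were each lowest in library A of control and again in library A of overexpression cortex. This was so for 4 of the 6 fitted members, and for 15.1% of the 10238 fitted genes. The pattern was noticed after the values were seen. Axin2 in library A was 0.850 times the mean of libraries B and C in control and 0.891 times in overexpression cortex. For Nkd1 the ratios were 0.844 and 0.776, and for Znrf3 they were 0.930 and 0.925. Lgr5 had ratios of 0.775 and 0.762, although control library B was lower still. Notum went the other way in control, at 1.67, and had 0.702 in overexpression cortex. Over the 6 libraries Pearson's r was 0.83 between Axin2 and Nkd1, 0.74 between Nkd1 and Znrf3 and 0.92 between Znrf3 and Lgr5, with Spearman's rho of 0.54, 0.60 and 0.89. These are among the higher of 15 pairs. Between Lgr5 and Axin2, Rnf43 and Nkd1, r was 0.34, 0.37 and 0.44, and between Rnf43 and Znrf3 it was 0.57. With Notum, r ran from -0.45 for Rnf43 to 0.13 for Nkd1. These are descriptions over 6 points that share the scaling factors.

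Library A is by its lettering the deepest of each group. In control cortex it held 98.8% to 100% of the scaled reads of the Y-linked genes Ddx3y, Eif2s3y, Kdm5d and Uty, and libraries B and C held next to none. In overexpression cortex each of the 4 means also allowed a solution with 98.6% to 100% in library A, beside at least 1 other solution. Of the markers of mural and meningeal cells, all 7 above 0 in each group, 2 of 7 were recovered. These 2 are a small part of a list that summed to 7425 in control and 7349 in overexpression cortex. They summed to 210, 428 and 439 in overexpression libraries A, B and C. In control libraries A, B and C they summed to 379, 327 and 376, so that library A was lowest in overexpression and highest in control cortex. Microglia markers, 4 of 7 recovered, were also lowest in overexpression library A, at 1239, and highest in control library A, at 1451. Recovered markers of excitatory and inhibitory neurons, of endothelial cells and of choroid plexus and ependyma did not do both. The part of depth, of Y-linked reads or of these cells in the low values of library A was not tested.

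**Figure D3:**
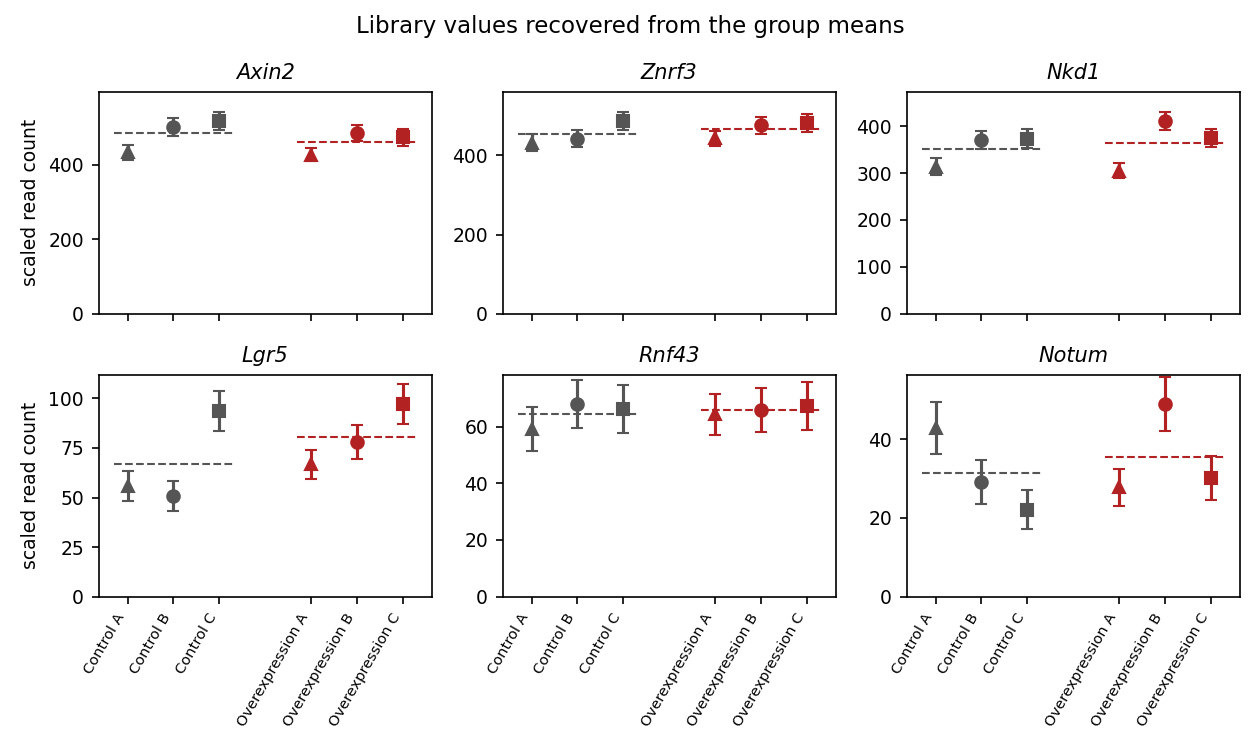
Scaled read count (y axis, from 0) of 6 genes in each recovered library of control (grey) and overexpression (red) cortex; bars are 1 SD of counting error and dashed lines the group means. Axin2, Znrf3, Nkd1 and Rnf43 are lowest in library A of each group, and the group ranges overlap in every panel.

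The promoters were read for the core letters that TCF/LEF factors bind. RefSeq windows on GRCm38.p6, from 250 bases before to 50 bases after a start, were at hand for 5 of the 9 genes, in 7 windows. The letters CTTTG followed by AA, AT, TA or TT were searched on both strands, and 16.9% of all 32851 windows hold at least 1 of them. Of the 7 windows 2 held a match, that of Sp5 with 2 matches and 1 of the 2 of Tnfrsf19 with 1 match. The other 5 windows, which belong to Axin2, Nkd1, Rnf43 and Tnfrsf19, held none, which says only that these letters are not in those 300 bases. The sequences of the 2 windows with matches and of Axin2 are shown, 5′ to 3′ on the strand of the gene, with matches in capitals, so that the least expressed gene, the most expressed gene and the main reporter gene can be compared.
Sp5, chr2:70474673-70474972, plus strand: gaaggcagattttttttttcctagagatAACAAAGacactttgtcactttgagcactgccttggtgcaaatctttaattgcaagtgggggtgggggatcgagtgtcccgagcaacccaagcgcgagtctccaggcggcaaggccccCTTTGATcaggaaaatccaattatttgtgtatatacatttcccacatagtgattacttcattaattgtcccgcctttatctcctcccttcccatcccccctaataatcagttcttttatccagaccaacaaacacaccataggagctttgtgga
Tnfrsf19, chr14:61037938-61038237, minus strand: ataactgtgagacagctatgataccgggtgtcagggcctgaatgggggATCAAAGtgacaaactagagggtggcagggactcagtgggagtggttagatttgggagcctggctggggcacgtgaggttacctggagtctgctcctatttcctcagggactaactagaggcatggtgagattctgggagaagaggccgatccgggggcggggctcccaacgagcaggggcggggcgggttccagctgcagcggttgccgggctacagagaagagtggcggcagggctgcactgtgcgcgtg
Axin2, chr11:108920099-108920398, plus strand: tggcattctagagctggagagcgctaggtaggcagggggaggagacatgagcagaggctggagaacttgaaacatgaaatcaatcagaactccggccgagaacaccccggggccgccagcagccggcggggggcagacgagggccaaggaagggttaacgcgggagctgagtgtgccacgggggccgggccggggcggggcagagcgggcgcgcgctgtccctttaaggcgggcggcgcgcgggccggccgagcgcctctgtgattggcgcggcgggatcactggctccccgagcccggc
In Sp5 the matches begin 222 and 104 bases before the start, the first on the opposite strand. The Tnfrsf19 match begins 202 bases before its start, on the opposite strand. The Axin2 window is 70.0% G and C, against a median of 52.7% over all windows. Among the 5 genes with a window, Sp5 had the most matches and the fewest reads in either group.

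Other genes of the pathway gave the same count of 0 calls. Of 29 further Wnt targets, 26 were above 0 in at least 1 group, and the authors' deposited table calls 0 of them higher and 0 lower at an adjusted p under 0.05. Their group values were higher in overexpression cortex for 12 and lower for 14, and the median on the log2 scale was -0.04, or 0.03 over those with a mean of at least 10. The 2 with the highest means were Id2, an inhibitor of bHLH factors, at 1889 (control) and 1753 (overexpression), and Dact2, a Dishevelled-binding gene, at 1490 and 1375. The authors' deposited table gives none of the 29 (0) an unadjusted p under 0.05.

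Genes for proteins that the feedback genes act on, and other pathway partners, gave no call either. The 29 partners were Frizzled, LRP and R-spondin genes, Dishevelled genes and the destruction complex, with Lgr4, Porcn, Wls, Gpc4 and Gpc6. Of them 0 were called in either direction, 11 had higher and 18 lower group values in overexpression cortex, and the median log2 fold change was -0.04. The most abundant were Apc, a destruction complex scaffold, at 21229 (control) and 23118 (overexpression), and the kinase gene Gsk3b at 6246 and 6072. The authors' deposited table lists 2 of the 29 with an unadjusted p under 0.05, 1 higher and 1 lower, where 0.534% of all tested genes had one, 0.328% higher and 0.206% lower. Dvl2, a Dishevelled gene whose product Nkd1 binds, was at 269, 367 and 352 in control libraries A, B and C. In overexpression libraries A, B and C it was at 387, 451 and 392. Its groups did not overlap, which held for 7.05% of the 10238 fitted genes, and the authors' deposited table lists p = 0.0272 for it, and 1 after adjustment. Rspo1, a ligand of Lgr5, was at 52.9, 58.3 and 46.3 in control libraries A, B and C. In overexpression libraries A, B and C it was at 39.9, 32.0 and 31.0. Its groups did not overlap either, and the authors' deposited table lists p = 0.0379, and 1 after adjustment. By limma the adjusted p was 0.9996 for Dvl2 and for Rspo1. Both genes were named for their unadjusted p under 0.05 in these same libraries, so their lack of overlap is no separate support.

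**Figure D4:**
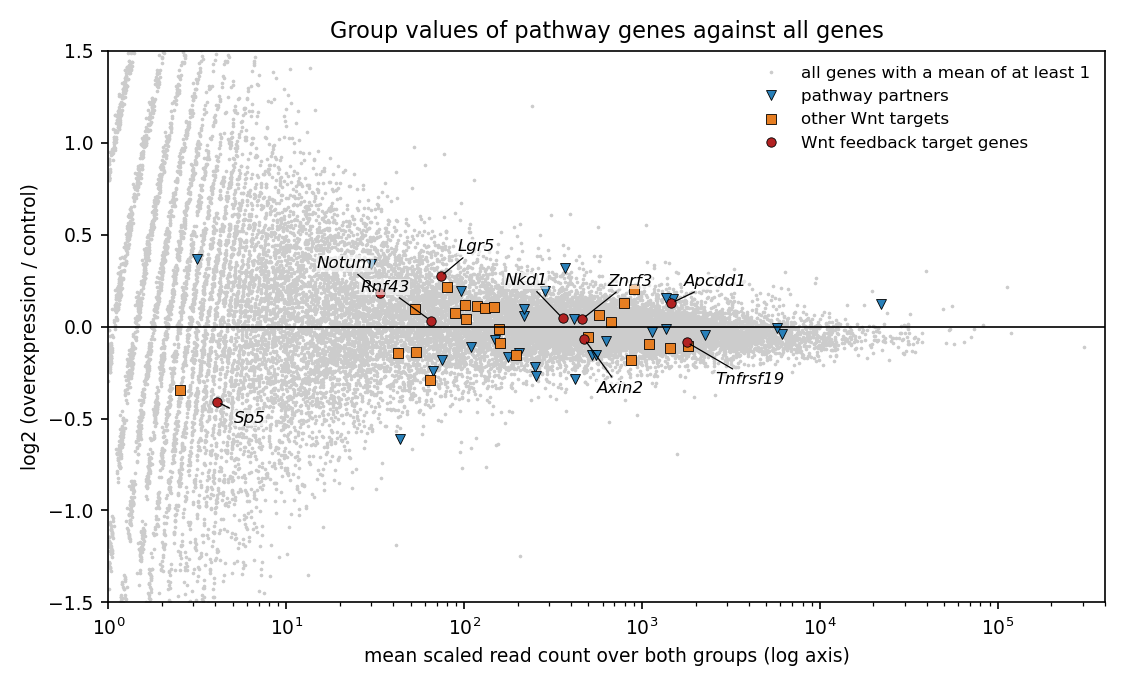
Log2 ratio of overexpression to control (y axis) against the mean scaled read count over both groups (x axis, log) for genes with mean 1 or more and a value above 0 in each group (grey), the 9 Wnt feedback target genes (red), other Wnt targets (orange) and pathway partners (blue). The 9 genes lie among the grey points of like mean, and 647 genes that pass these limits, none of them in these lists, lie beyond the y axis. List genes with a mean under 1 are not drawn, among them Dkk4 at a log2 ratio of -1.77.

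Markers of cortical cell classes were detected, and the lists hold no marker of region or age. All 7 excitatory neuron markers were detected, led by Camk2a at 66769 (control) and 63088 (overexpression). They summed to 144258 and 138020, with 7 of 7 lower in overexpression cortex and a median log2 fold change of -0.06. Inhibitory neuron markers summed to 13716 (control) and 12482 (overexpression), with 6 of 7 lower and a median of -0.13. Oligodendrocyte markers were higher in 7 of 7, at sums of 131964 and 141772. None of these markers was called, and their part in the members' values was not tested. Of all 17095 genes with a mean of at least 10, 9101 were lower and 7994 higher in overexpression cortex. Of the 11645 with a mean of at least 100, 6728 were lower and 4917 higher. Endothelial markers, 7 of 7 detected, summed to 4757 (control) and 4819 (overexpression), and oligodendrocyte precursor markers, 7 of 7, to 10944 and 11136. Astrocyte markers summed to 104800 (control) and 100852 (overexpression), with 3 of 7 higher and 4 lower in overexpression cortex. Slc1a2 alone held 72524 and 69614 of these sums. Choroid plexus and ependymal markers, 7 of 7 above 0, summed to 943 in control library B and to between 224 and 347 in the other 5 libraries. Among the 7 genes with library values, control library B was the highest control library for Rnf43 and Sp5 and the lowest for Lgr5. For Axin2, Nkd1, Znrf3 and Notum it lay between control libraries A and C. The members thus had no shared direction in control library B, and a link to the choroid plexus and ependymal markers was not tested. No marker of these lists was at 0 in either group.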

How the data were processed

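Cortex RNA of 6 samples, 3 control and 3 overexpression, had been sequenced, and the authors deposited 1 table of 47794 genes. Its signal columns hold 1 scaled read count per group, as the authors deposited them; the values show it to be the mean over libraries of reads divided by a scaling factor. The p-values and adjusted p-values are the authors' own, per the file headers. The deposited log2 fold changes equal log2 of overexpression over control within 4.99e-05. Per the submitters' processing notes, TopHat2 2.0.9 and Bowtie2 2.0.6 were among the tools; for build, annotation, counter, strand setting and test the entry is: not given in the sources used here. Group values carry no SD or n. Symbols were found for 98.8% of 47069 Ensembl IDs.

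The members and lists were chosen with earlier results of these data known. Named genes were the 9 members, list genes with an authors' unadjusted p under 0.05 or among the 2 highest means of their list, and for each fitted member the 3 genes most alike over libraries; those of Lgr5 are not reported here. Whole reads per library were searched so that they matched each group mean to its 10 significant digits. In control, 100% of 13627 distinct means up to 1000 had 1 solution. In overexpression, 99.9% of 8690 means up to 200 had 1 solution. Above 200 only solutions with all libraries within 2-fold of the mean were searched, and above 400 within 1.5-fold, with 98.2% and 92.7% giving 1 solution, so a gene with an outlying library could be solved wrongly there. For that reason 4 Y-linked genes were left out of the fit, which was decided after seeing the data. Alternatives covered pseudocounts, filters, scaling, the trend and libraries left out. Genes with a mean from 10 to 500 were fitted with limma 3.58.1 in R 4.3.3 (mean-variance trend, log2 of value plus 1), 99.3% of those in that range. The added 1 draws the folds of low genes towards 1. Limma averages log values, so its folds can still lie further from 1 than those of the group values. This was so for Lgr5, at a log2 value of 0.31 by limma against 0.27. Recovery and fit were tested on simulated data. Intervals for depth cover counting error only.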

Additional observations from a re-analysis of the deposited data

How the results depend on the processing

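No paired analysis was possible because the deposited columns carry no replicate numbers, and the recovered libraries cannot be tied to them. The median log2 fold change over the 9 genes was between 0.04 and 0.07 when low genes were left out, when 1 or 5 was added to the group values, and when values were centred on all genes or divided by column sums, the last of which moved every log2 value by 0.03. No single-gene direction changed under these settings, but none of them could have turned one. Adding 1 or 5 to both group values cannot change the sign of a log2 ratio. Centring and column sums raised every log2 value alike, by less than Axin2, Tnfrsf19 and Sp5 lay below 0. With limma, 0 members and 0 genes of all fitted were called in any setting, including each library left out, a ceiling of 200 on the mean, and library A of each group as a covariate, the last 2 chosen after seeing the data. The number of fitted genes with an unadjusted limma p under 0.05 was 209, and it was 441 when means from 1 were admitted, 114 when only those from 50 were, and 341 without the mean-variance trend; it ranged from 148 to 383 with 1 library left out, the highest without control library C and 328 without overexpression library B. With 1 library left out, the log2 fold change ranged from -0.14 to -0.01 for Axin2, from 0.01 to 0.09 for Znrf3, from 0.14 to 0.57 for Lgr5, from -0.0555 to 0.16 for Nkd1, from -0.0656 to 0.43 for Notum and from -0.0272 to 0.0734 for Rnf43. Nkd1 fell below 0 without overexpression library B and, at -0.0426, without control library A. Notum did so without overexpression library B and, at -0.0365, without control library C, and Rnf43 without control library A. The cause was not tested. Sp5 could be fitted only with a mean of at least 1, where its log2 value was -0.45. Counting error relative to the mean was largest for Sp5, Notum, Lgr5 and Rnf43 among the 7 genes with library values. For Lgr5 and Notum the spread between libraries was larger than counting gives in each group. In control the coefficients of variation were 35.1% for Lgr5 and 33.6% for Notum, against 12.7% and 18.4% from counting.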

Other observations

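The genes whose library values were most like those of each member over the 6 libraries, among fitted genes with a mean of at least 100, are named as a description without a test. With 6 points, many genes reach a high Pearson's r: between 31 and 70 genes were above 0.9 for each member. For Axin2 they were 2810032G03Rik, Scpep1, a serine carboxypeptidase-like gene, and Arhgap45, with r of 0.98, 0.98 and 0.97. For Nkd1 they were Rnd3, Acss1, a mitochondrial acetyl-CoA synthetase gene, and Zfp408, with r of 0.996, 0.993 and 0.992. For Znrf3 they were Rdh13, Adsl and Trp53, with r of 0.998, 0.989 and 0.985. For Rnf43 they were Kirrel, Rbak and Sned1, with r of 0.98, 0.97 and 0.97. For Notum they were Tpst2, Zfpl1 and Ccdc107, with r of 0.97, 0.97 and 0.96. None of the genes named here is in the lists of Wnt targets or partners.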
